A study of Mus musculus with 12 samples.

Results

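The 6 genes described here encode SR protein kinases of the CLK and SRPK families. They are CLK1, CLK2, CLK3, CLK4, SRPK1 and SRPK2, out of 58735 genes in the deposited expression table. They were found by their full names (CDC like kinase 1 to 4 and SRSF protein kinase 1 and 2), each matched 1 gene, and all 6 were among the 17538 genes with a mean of at least 0.5 FPKM (fragments scaled to the length of the gene and the size of the library) that entered the tests. SRPK3, the third SRPK, was also found by full name but is not one of the 6, and is described below with other kinases. The study sequenced RNA of U2OS, a human osteosarcoma cell line, in 12 libraries to follow the loss of the splicing factor SRSF1. The labels gave 4 groups with 3 replicates each, namely blank U2OS cells, cells that received the siRNA siSRSF1-2, cells that received siSRSF1-3, and OE-LINC01134, in which the long non-coding RNA LINC01134 was overexpressed. All groups shared the U2OS background, and neither genotype changes nor further agents were named for any of them. Both siRNAs target the mRNA of SRSF1, at different sequences. No library of cells given a control siRNA was analysed here, so that an effect of transfection and an effect of losing SRSF1 cannot be told apart. Nothing in the labels placed replicates in separate cultures, and p-values measure only the spread between these libraries, which may be technical.

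SR proteins are splicing factors whose tail of alternating arginine and serine residues is phosphorylated on many serines. SRPKs act mainly in the cytoplasm, where phosphorylation of that tail lets the transportin TNPO3 carry SR proteins into the nucleus. CLKs act in the nucleus, add further phosphates and release SR proteins from nuclear speckles to the sites of transcription, and phosphatases such as PP1 remove the phosphates again. SRSF1 is the best studied substrate of both families, and the mRNA level of a kinase does not report its activity.

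The targeted genes followed the labels. SRSF1 stood at 35.93, 19.76 and 20.48 FPKM in blank replicates 1 to 3, at 7.09, 7.46 and 7.41 with siSRSF1-2, at 3.33, 6.81 and 7.90 with siSRSF1-3, and at 31.76, 29.62 and 30.31 with OE-LINC01134. The fall was 1.72 on the log2 scale with siSRSF1-2 (adjusted p = 0.00500), and the difference with siSRSF1-3 was -2.09 with an adjusted p of 0.0518 (limma, Benjamini-Hochberg). LINC01134 was between 0.50 and 0.79 FPKM in blank cells and between 878 and 1279 FPKM in the overexpressing cells. Vimentin (68.7 to 248 FPKM), SPARC and COL1A1, which mesenchymal cells express, were detected in all libraries, RUNX2 was at 1.55 to 3.92 FPKM, and COL1A2 was at or near 0. The leukocyte, endothelial and liver markers PTPRC, PECAM1 and ALB stayed at or below 0.368 FPKM, and the epithelial markers EPCAM and CDH1 at or below 2.43 FPKM.

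Libraries of 1 group were not equally close. Over the genes tested, the root mean square difference in log2 FPKM was 0.45 between blank replicates 2 and 3 and between OE-LINC01134 replicates 1 and 3, and 0.44 to 0.46 among the siSRSF1-2 libraries. Blank replicate 1 and OE-LINC01134 replicate 2 each had the other as nearest library (0.66), ahead of any replicate of their own group, and siSRSF1-3 replicate 3 lay nearer to siSRSF1-2 replicate 1 (0.58) than to its own group (0.93 or more). Vimentin also divided libraries within groups. It was at 171 to 248 FPKM in the blank libraries, OE-LINC01134 replicate 2 and siSRSF1-3 replicates 1 and 2, and at 68.7 to 79.4 FPKM in the other 6, a pattern noticed after the values were seen. Whatever separates those sets cannot be told apart from the treatment in siSRSF1-2 against blank, where each set is 1 group. The libraries held 26237763 to 32954539 reads on genes. The scaling of the deposited values also differed. Relative to reads on genes, the divisor behind the FPKM was 0.712 in siSRSF1-3 replicate 1 and 0.888 in replicate 2. It was 0.990 to 1.085 in the other libraries. The sum of all FPKM was 611084 in siSRSF1-3 replicate 1, 410612 in replicate 2 and 281051 to 324607 in the other libraries. That sum also depends on the lengths of the genes that hold the reads, and does not measure scaling alone.

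SRPK1 (ENSG00000096063, chromosome 6, 35832966 to 35921342, minus strand) is the kinase that drives nuclear entry of SRSF1. Its level was 20.12, 18.51 and 18.68 FPKM in blank replicates 1 to 3, 18.12, 18.22 and 18.04 FPKM with siSRSF1-2, 15.78, 13.30 and 15.51 FPKM with siSRSF1-3, and 10.82, 12.71 and 10.84 FPKM with OE-LINC01134. The 4 groups did not overlap and ran from blank down through siSRSF1-2 and siSRSF1-3 to OE-LINC01134. Blank and siSRSF1-2 lay close together, since the lowest blank library was at 18.51 FPKM and the highest siSRSF1-2 library at 18.22 FPKM.

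SRPK2 (ENSG00000135250, chromosome 7, 105110704 to 105399308, minus strand) is the close paralog of SRPK1. It was at 13.28, 7.80 and 8.98 FPKM in blank cells, 16.37, 16.81 and 17.09 FPKM with siSRSF1-2, 4.67, 6.92 and 10.73 FPKM with siSRSF1-3, and 23.17, 18.28 and 23.28 FPKM with OE-LINC01134. The libraries that stood apart were also the uneven ones here: blank replicate 1 was the highest of its group, OE-LINC01134 replicate 2 the lowest, and siSRSF1-3 replicate 3 the highest. OE-LINC01134 lay above siSRSF1-2, which lay above blank and siSRSF1-3, and only the last pair overlapped.

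CLK2 (ENSG00000176444, chromosome 1, 155262868 to 155278491, minus strand) phosphorylates SR proteins in the nucleus and is also known from insulin signaling in the liver. Its level was 13.11, 11.38 and 12.12 FPKM in blank cells, 14.03, 13.77 and 14.30 FPKM with siSRSF1-2, 12.06, 14.20 and 14.45 FPKM with siSRSF1-3, and 14.90, 12.91 and 16.03 FPKM with OE-LINC01134. By the ratio of its highest to its lowest library CLK2 varied least of the kinases, and only the siSRSF1-2 libraries lay wholly above the blank ones.

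CLK1 (ENSG00000013441, chromosome 2, 200853009 to 200864744, minus strand) is the best characterised of the nuclear kinases and disperses speckles when in excess. It was at 7.75, 11.42 and 11.61 FPKM in blank cells, 9.62, 9.64 and 9.95 FPKM with siSRSF1-2, 8.56, 9.27 and 10.03 FPKM with siSRSF1-3, and 14.54, 7.14 and 14.85 FPKM with OE-LINC01134. The lowest values of all were those of OE-LINC01134 replicate 2 and blank replicate 1, and every group overlapped its neighbours.

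CLK3 (ENSG00000179335, chromosome 15, 74598500 to 74645414, plus strand), which is most abundant in testis, was at 1.88, 2.75 and 2.77 FPKM in blank cells. It stood at 2.87, 2.65 and 2.69 FPKM with siSRSF1-2, at 4.004, 4.09 and 3.18 FPKM with siSRSF1-3, and at 3.73, 2.47 and 3.81 FPKM with OE-LINC01134. On the deposited scale every siSRSF1-3 library lay above every blank and every siSRSF1-2 library. By share of reads on genes, siSRSF1-3 replicate 1 (1605 of 27546958) lay below blank replicate 2 (1598 of 26237763) and siSRSF1-2 replicate 1 (1686 of 26470200). By that share, siSRSF1-3 replicates 2 and 3 stayed above every blank and siSRSF1-2 library. The file gives CLK3 a length of 20443 bases against 3670 to 7924 for the other kinases, and its FPKM is low for its 1063 to 2226 reads per library for that reason.

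CLK4 (ENSG00000113240, chromosome 5, 178602664 to 178630615, minus strand), the paralog closest to CLK1, had the lowest level. It was at 1.46, 1.65 and 1.99 FPKM in blank cells, 1.89, 2.07 and 2.12 FPKM with siSRSF1-2, 1.41, 1.54 and 1.70 FPKM with siSRSF1-3, and 2.02, 1.38 and 1.77 FPKM with OE-LINC01134. Neighbouring groups overlapped throughout, and the siSRSF1-3 libraries lay below all siSRSF1-2 libraries. With 219 to 595 reads per library, CLK4 was also the member with the largest counting error.

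**Figure D1:**
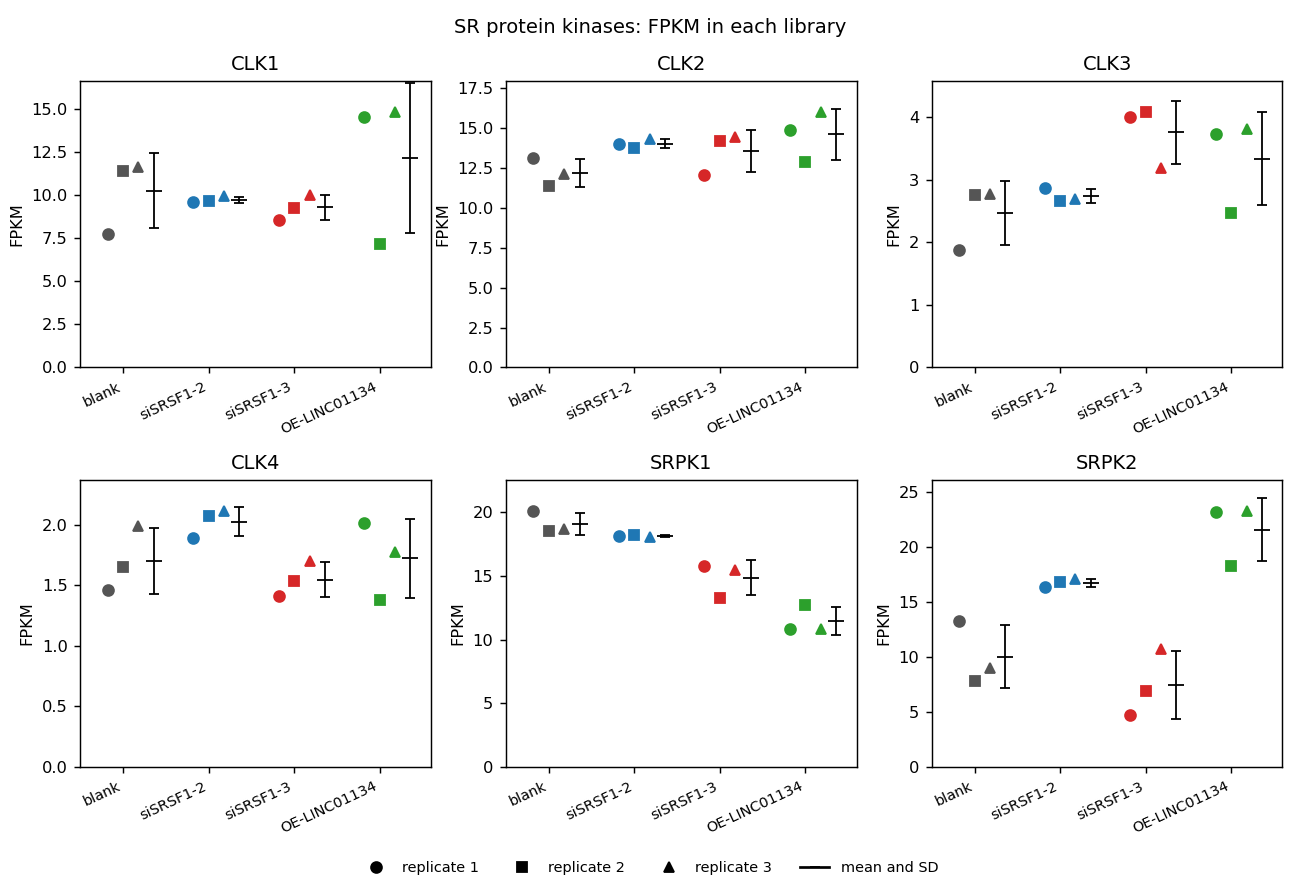
Level of each kinase in FPKM (vertical axes, from 0) in the 3 libraries of each of the 4 groups; symbols mark the replicate, and the bar beside them the mean and SD. SRPK1 falls from 18.51 to 20.12 FPKM in blank cells to 10.82 to 12.71 FPKM with OE-LINC01134, while SRPK2 goes from 7.80 to 13.28 FPKM up to 18.28 to 23.28 FPKM.

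Levels were set side by side between genes on the FPKM scale, which is per length as the file gives it. The place of CLK3 in this order rests on its listed length of 20443 bases, since it had more reads than CLK2 in 11 of 12 libraries. In blank cells the order of means was SRPK1 (19.1 ± 0.884 FPKM, SD, n = 3), CLK2 (12.2 ± 0.867), CLK1 (10.3 ± 2.17), SRPK2 (10.02 ± 2.88), CLK3 (2.47 ± 0.509) and CLK4 (1.70 ± 0.270). SRPK1 lay above the others in every blank library, whereas CLK2 and CLK1, CLK1 and SRPK2, and CLK3 and CLK4 overlapped. With siSRSF1-2, SRPK2 (mean 16.8 FPKM) moved to the second place behind SRPK1 (mean 18.1 FPKM), and no neighbours overlapped. With siSRSF1-3, the order was that of blank cells, and SRPK1 (14.9 ± 1.36 FPKM) overlapped CLK2 (13.6 ± 1.31 FPKM). With OE-LINC01134, SRPK2 was highest (21.6 ± 2.86 FPKM) and lay above CLK2 (14.6 ± 1.58 FPKM) in every library, while SRPK1 (11.5 ± 1.08 FPKM) came after CLK1 (12.2 ± 4.36 FPKM), which it overlapped.

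With siSRSF1-2, SRPK2 rose to 1.71-fold of the blank level and was the only kinase of the 6 to pass the test. The difference was 0.77 ± 0.192 on the log2 scale (log2 of FPKM + 0.1, ± standard error, 3 + 3 libraries, adjusted p = 0.0313), and all siSRSF1-2 libraries lay above all blank ones. Of all 17538 genes tested, 26.8% passed in this comparison and 14% passed as higher, and 1 of 6 kinases is no more than that background. CLK2 was 1.15-fold of blank (0.20 ± 0.0722, adjusted p = 0.0879) with no overlap, and SRPK1 was 0.950-fold (-0.07 ± 0.0594, adjusted p = 0.393), also with no overlap, where 49.5% of all genes did not overlap. The log2 differences of CLK4 (0.25, adjusted p = 0.236), CLK3 (0.17, adjusted p = 0.492) and CLK1 (-0.05, adjusted p = 0.837) were within the spread of the libraries.

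The call of SRPK2 with siSRSF1-2 was not stable when single libraries were left out. Its difference stayed between 0.61 and 0.99 when each library was left out in turn, but it passed in 1 of the 6 cases, without blank replicate 1 (log2 0.99, adjusted p = 0.000193). CLK2 (0.25, adjusted p = 0.00388) and CLK1 (-0.24, adjusted p = 0.00278) passed there as well, when 52.2% of all genes did. SRPK2 missed the threshold in the other 5, when 10.4% to 18.4% of all genes passed, against 26.8% with all libraries. Missing it there does not single out a library. With the near-identical siSRSF1-2 libraries and blank replicates 2 and 3 averaged, SRPK2 differed by 0.66, and that fit of 1 averaged library against 2 says nothing about the call, since 0 of 17538 genes passed in it.

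With siSRSF1-3, none of the 6 kinases passed the test against blank cells, where 1.28% of all genes did. With limma's voom on the reads 0 passed, beside 3.79% of all genes. At an unadjusted p under 0.05 there was 1, beside 28.8% of all genes. It was CLK3, which was 1.52-fold of the blank level (0.60 ± 0.228, adjusted p = 0.147) and did not overlap it on the deposited scale. SRPK1 was at 0.778-fold (-0.36 ± 0.163, adjusted p = 0.187), also without overlap, which 37.2% of all genes shared. SRPK2 differed by -0.47 ± 0.344 (adjusted p = 0.376) and overlapped the blank libraries. CLK2 (0.15, adjusted p = 0.554), CLK1 (-0.12, adjusted p = 0.710) and CLK4 (-0.12, adjusted p = 0.724) overlapped them too. The sign for CLK2 turned to -0.11 when libraries were scaled to their own reads on genes, and that scaling moved the median of all genes from -0.01 to -0.26.

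The siRNAs differed most in SRPK2. With siSRSF1-3 the log2 level of SRPK2 was below that with siSRSF1-2 by 1.24 ± 0.293, at 0.423-fold, and no library overlapped, yet the adjusted p was 0.0784. None of the 6 kinases passed in this comparison, where 0.0855% of all genes did, and 0 passed with voom, beside 0.770% of all genes. At an unadjusted p under 0.05, 1 was higher and 3 were lower, and 42.1% of all genes were past that limit, 21.9% as higher and 20.2% as lower. CLK3 was higher by 0.43 (adjusted p = 0.0916), and CLK4 (-0.37, adjusted p = 0.115) and SRPK1 (-0.29, adjusted p = 0.111) were lower. On the deposited scale these 4 kinases did not overlap between the siRNAs, and 54.6% of all genes did not either. The sign of CLK3 turned with libraries scaled to the same FPKM sum, which moved the median of all genes to -0.57. CLK1 (-0.07, adjusted p = 0.626) and CLK2 (-0.05, adjusted p = 0.732) overlapped. Without siSRSF1-3 replicate 3, the library nearest to siSRSF1-2, these 4 passed, with SRPK2 at -1.54 (adjusted p = 0.00248), and so did 61.2% of all genes.

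**Figure D2:**
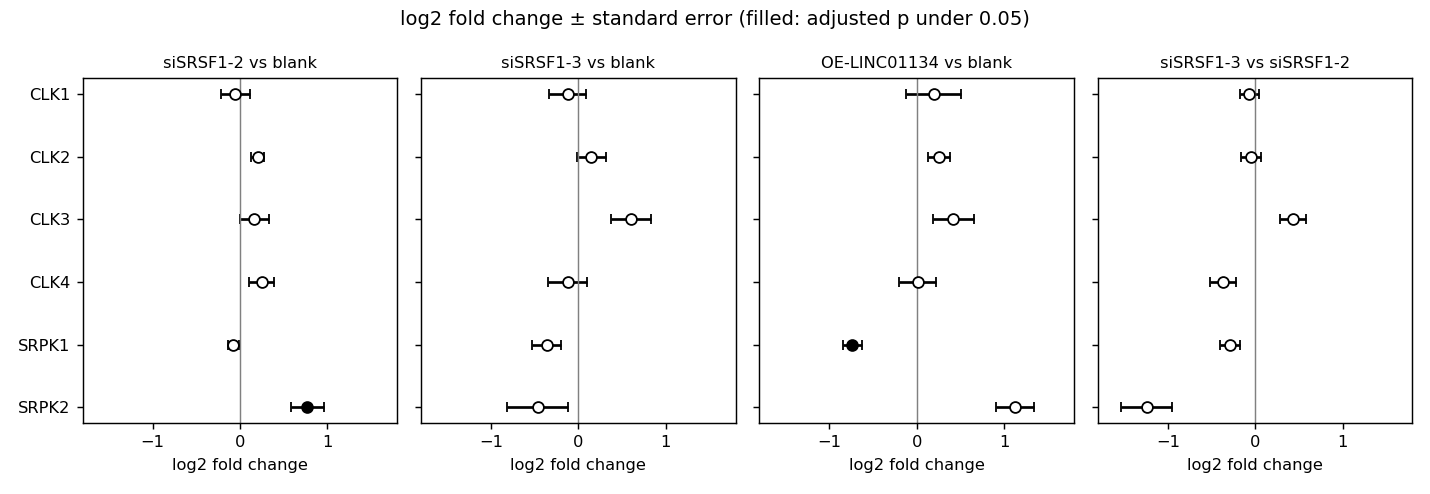
Difference in log2(FPKM + 0.1) for each kinase in the 4 comparisons, with the standard error as bars and filled points for an adjusted p under 0.05. SRPK2 stands at 0.77 with siSRSF1-2, -0.47 with siSRSF1-3 and 1.13 with OE-LINC01134, and the only filled points are SRPK2 with siSRSF1-2 and SRPK1 with OE-LINC01134.

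With OE-LINC01134, SRPK1 fell to 0.601-fold of the blank level, by 0.74 ± 0.113 on the log2 scale (adjusted p = 0.0445), and was the only kinase called, where 1.18% of all genes were called, 0.45% as higher and 0.73% as lower. SRPK2 was 2.18-fold of blank, with a larger difference and a larger error (1.13 ± 0.216, adjusted p = 0.0601). Both were free of overlap with the blank libraries, as were 30.6% of all genes. CLK3 (0.42, adjusted p = 0.301), CLK2 (0.25, adjusted p = 0.243), CLK1 (0.19, adjusted p = 0.723) and CLK4 (0.01, adjusted p = 0.980) overlapped the blank libraries.

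Leaving out each library in turn kept SRPK1 between -0.81 and -0.70 and SRPK2 between 0.97 and 1.35 with OE-LINC01134. Both passed without blank replicate 1 (adjusted p = 0.0202 for SRPK1 and 0.0118 for SRPK2) or without OE-LINC01134 replicate 2 (adjusted p = 0.00690 and 0.0221), when 13.9% and 25.5% of all genes passed. Neither passed in the other 4 cases, when 0.0057% to 0.0513% of all genes did, so that missing the threshold there says nothing about these kinases. In OE-LINC01134 replicate 2, whose vimentin was at the blank level, SRPK1 (12.71 FPKM) was below the lowest blank value and SRPK2 (18.28 FPKM) above the highest. The part of the division between libraries in these differences was not tested. With OE-LINC01134 replicates 1 and 3 and blank replicates 2 and 3 averaged, SRPK1 differed by -0.72, and only 1 gene of 17538 passed in that fit. The comparisons against blank share the 3 blank libraries, and their values are not independent of each other.

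**Figure D3:**
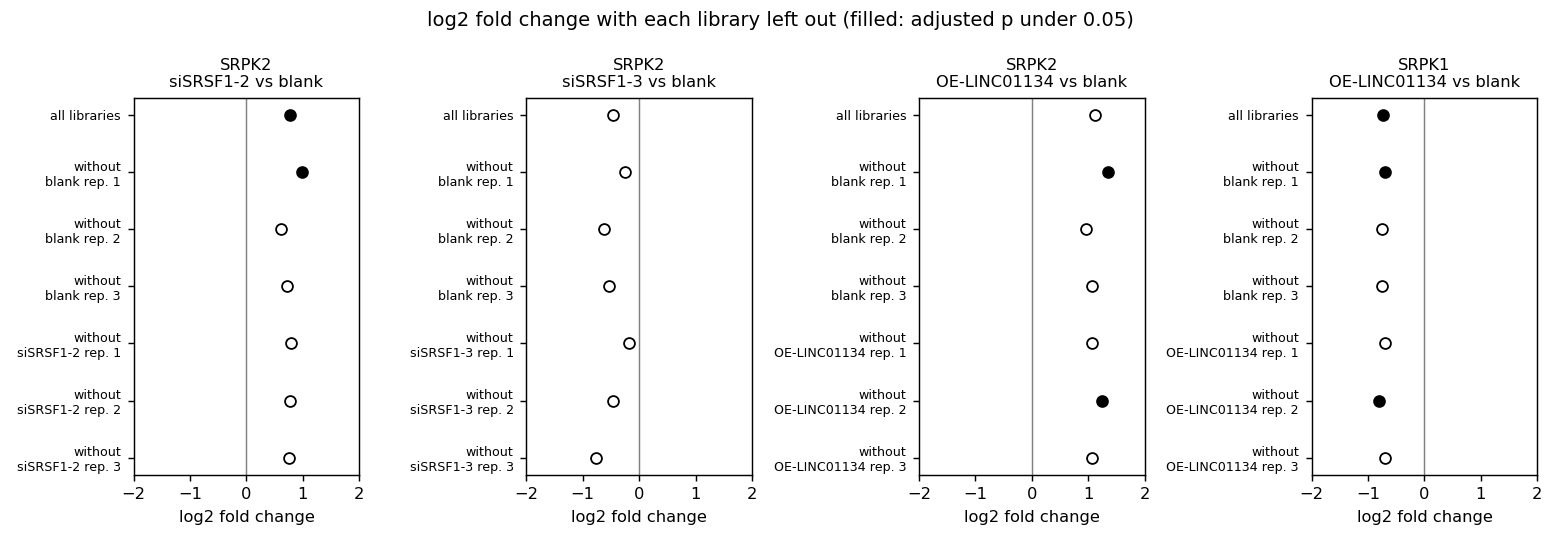
Log2 difference of SRPK2 in 3 comparisons and of SRPK1 with OE-LINC01134, with all 6 libraries and with each left out in turn; filled points have an adjusted p under 0.05. No point crosses 0, and SRPK2 with siSRSF1-2 is filled with all libraries and without blank replicate 1.

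The balance between the paralogs was described as the share of SRPK2 in the summed FPKM of SRPK1 and SRPK2. It was 39.8%, 29.6% and 32.5% in blank replicates 1 to 3 and 47.5%, 48.0% and 48.6% with siSRSF1-2. It was 22.8%, 34.2% and 40.9% with siSRSF1-3 and 68.2%, 59.0% and 68.2% with OE-LINC01134. The means of siSRSF1-2 and OE-LINC01134 lay 14.1 and 31.2 percentage points above blank without overlap, while that of siSRSF1-3 was 1.30 points below blank and overlapped it. CLK1 to CLK4 together made up 42.0%, 50.8% and 50.7% of the summed FPKM of the 6 kinases in blank cells and between 44.5% and 45.3% with siSRSF1-2. Their share was 56.0%, 59.0% and 52.8% with siSRSF1-3, above every blank library, and 50.9%, 43.5% and 51.7% with OE-LINC01134. The CLK share rests on the listed length of CLK3 as well. No p is given for these shares, since the kinases in them were chosen with earlier results known.

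**Figure D4:**
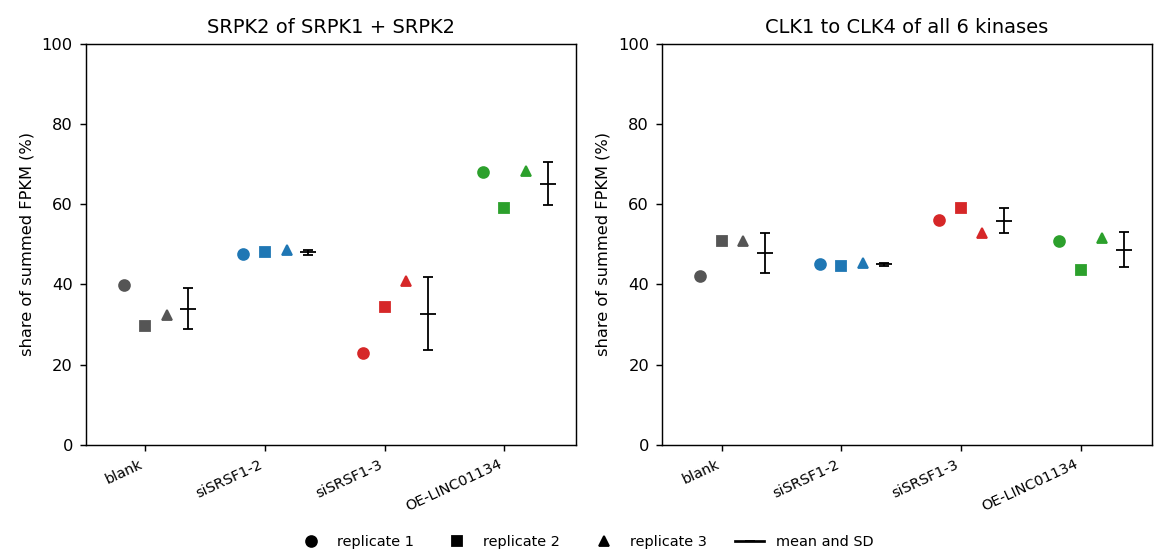
Share of SRPK2 in SRPK1 plus SRPK2 (left) and of CLK1 to CLK4 in all 6 kinases (right), as percent of summed FPKM per library, with the mean and SD of each group. The SRPK2 share is 59.0% to 68.2% with OE-LINC01134 and 22.8% to 40.9% in blank and siSRSF1-3 libraries.

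Other kinases, from families of which some members phosphorylate SR proteins or related splicing factors, were 14 in number, of which 13 were tested. They were SRPK3, PRPF4B and kinases of the DYRK, HIPK and CDK11 to CDK13 families. With siSRSF1-2, 5 of the 13 rose and none fell, where 14% of all genes rose and 12.8% fell, with a median log2 difference of 0.34 against 0.02 for all genes. SRPK3, the third SRPK and best known from muscle, was at 1.90, 1.31 and 1.28 FPKM in blank cells and 2.83, 2.73 and 2.83 FPKM with siSRSF1-2 (log2 0.88, adjusted p = 0.0127). It stood at 2.53, 2.60 and 2.79 FPKM with siSRSF1-3 (0.80, adjusted p = 0.0967), above all blank libraries with either siRNA. DYRK1A (0.75, adjusted p = 0.0112), DYRK3 (0.70, adjusted p = 0.0396), HIPK3 (0.61, adjusted p = 0.0120) and HIPK1 (0.43, adjusted p = 0.0161) were the others called with siSRSF1-2. HIPK1 was at 4.23 ± 2.14 FPKM with siSRSF1-3 against 7.77 ± 0.768 FPKM in blank cells (-0.97, adjusted p = 0.129), and DYRK2 at 1.67 ± 0.241 against 2.57 ± 0.131 FPKM (-0.61, adjusted p = 0.120), both below all blank libraries. DYRK4 was at 9.32, 8.16 and 4.58 FPKM with siSRSF1-3 against 4.17 to 4.62 FPKM in blank cells and overlapped them (0.65, adjusted p = 0.179).

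Of the SR protein substrates, 13 of 14 were tested, and with siSRSF1-2 1 rose and 4 fell, beside 14% and 12.8% of all genes. The 4 include SRSF1, which the siRNA targets. Besides SRSF1 itself, the ones that fell were TRA2A, from 25.2 ± 0.527 to 15.9 ± 0.341 FPKM (log2 -0.66, adjusted p = 0.00146), SRSF7 (-0.53, adjusted p = 0.00724) and SRSF9 (-0.45, adjusted p = 0.0168). SRSF11 was higher (0.46, adjusted p = 0.0147). TRA2A was at 19.1 ± 1.90 FPKM with siSRSF1-3 (-0.40, adjusted p = 0.164), below all blank libraries. SRSF6 (0.35, adjusted p = 0.314) and SRSF9 (-0.60, adjusted p = 0.408) overlapped blank cells with siSRSF1-3.

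SR-related proteins of the nuclear speckles had a median log2 difference of 0.31 with siSRSF1-2, against 0.02 for all genes. Beside 14% of all genes called higher and 12.8% lower, 6 of the 16 were called higher and 0 lower. They included SRRM2 (from 45.9 ± 7.28 to 69.9 ± 1.39 FPKM, log2 0.62, adjusted p = 0.0125) and SON (0.54, adjusted p = 0.0190), the proteins that form the speckle core. PNISR (0.58, adjusted p = 0.00400), NKTR (0.66, adjusted p = 0.00839), CLASRP, named for its association with a CLK kinase (0.38, adjusted p = 0.00985), and LUC7L2 (0.36, adjusted p = 0.0266) were the others. SRRM2 was at 35.2 and 38.0 FPKM in siSRSF1-3 replicates 1 and 2 and at 62.9 FPKM in replicate 3, which was above all blank libraries. CLASRP (0.82, adjusted p = 0.0617), RNPS1 (0.69, adjusted p = 0.0917) and LUC7L2 (0.62, adjusted p = 0.109) were above all blank libraries with siSRSF1-3, and PNN (-0.64, adjusted p = 0.162) below them. With OE-LINC01134, all 16 had a positive log2 difference, with a median of 0.40 against 0.05 for all genes. None of them passed the test, where 1.18% of all genes did. Of the 16, 10 were higher at an unadjusted p under 0.05, as were 14.0% of all genes.

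Phosphatases, which undo the work of the kinases, gave 0 higher and 2 lower of 10 with siSRSF1-2. Of all genes, 14% were called higher and 12.8% lower there. PPP1CA, a catalytic subunit of PP1, fell from 79.1 ± 6.36 to 48.5 ± 0.150 FPKM (log2 -0.70, adjusted p = 0.00243), and PPM1G fell by 0.56 (adjusted p = 0.0107). PPP2R1A (-0.36, adjusted p = 0.0796) and PPP2CA (-0.24, adjusted p = 0.0925) were below all blank libraries. With siSRSF1-3, PPP1CA was at 94.6 ± 23.9 FPKM and overlapped blank cells (0.23, adjusted p = 0.528), PPP1CC was lower (-0.78, adjusted p = 0.123), and PPP2CB (0.42, adjusted p = 0.141) and PPP2CA (0.32, adjusted p = 0.274) had positive differences.

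Import factors, chaperones and SRPK1 partners gave no call among 9 genes in any comparison. The share of all genes called was 26.8% with siSRSF1-2, 1.28% with siSRSF1-3, 1.18% with OE-LINC01134 and 0.0855% between the siRNAs. With siSRSF1-2, 1 of the 9 was higher and 3 were lower at an unadjusted p under 0.05, beside 20.6% and 19.7% of all genes. TNPO3, which imports phosphorylated SR proteins, differed by 0.15 with siSRSF1-2 (adjusted p = 0.101) and lay above all blank libraries. With siSRSF1-3 it differed by -0.36 (adjusted p = 0.222) and lay below them all. Groups did not overlap for 49.5% and 37.2% of all genes in these comparisons. AHSA1 is a cochaperone that holds SRPK1 in the cytoplasm together with HSP90. With siSRSF1-2 it was at 22.8 ± 0.602 against 36.4 ± 12.8 FPKM in blank cells (-0.62, adjusted p = 0.0962). DNAJC8 (-0.35, adjusted p = 0.0850) and HSP90AA1 (-0.66, adjusted p = 0.112) were also below all blank libraries with siSRSF1-2. With siSRSF1-3, HSP90AA1 (-1.01, adjusted p = 0.105), HSPA8 (-1.28, adjusted p = 0.123) and HSP90AB1 (-0.70, adjusted p = 0.272) were also below all blank libraries. Blank replicate 1 stood far above the other blank libraries in these genes. In blank replicates 1 to 3, HSP90AA1 was at 190, 96.0 and 101 FPKM, HSPA8 at 248, 84.1 and 88.5, and HSP90AB1 at 1141, 513 and 542.

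The counts in these lists with siSRSF1-2 changed with the libraries and the fit. Without blank replicate 1, other kinases gave 8 higher and 1 lower, SR protein substrates 5 and 5, and SR-related proteins 13 and 1. Those counts stood beside 27.4% of all genes called higher and 24.7% lower. With 1 fit over all groups, other kinases gave 1 higher, SR-related proteins and phosphatases none in either direction, and 3 SR protein substrates were lower, when 3.76% of all genes passed. In the other 3 comparisons the 61 genes tested of these lists held 0 calls with limma on log2 FPKM. Among all genes, 1.28% were called with siSRSF1-3 against blank, 1.18% with OE-LINC01134 and 0.0855% between the siRNAs. With shares that low, 0 calls says little about these lists. At an unadjusted p under 0.05, 5 of the 61 were higher and 8 lower with siSRSF1-3 against blank. There were 20 higher and 1 lower with OE-LINC01134, and 10 higher and 18 lower between the siRNAs. The shares of all genes there were 15.2% and 13.6%, 14.0% and 12.3%, and 21.9% and 20.2%, in the same order. With voom, 1 SR substrate was called lower and 1 SR-related gene higher with siSRSF1-3, and none in the other comparisons. Of all genes, 2.55% were called lower and 1.24% higher with siSRSF1-3 in that fit. Without siSRSF1-3 replicate 3, SR-related proteins gave 3 higher and 2 lower against blank and other kinases 1 higher and 4 lower, where 35.9% of all genes passed.

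**Figure D5:**
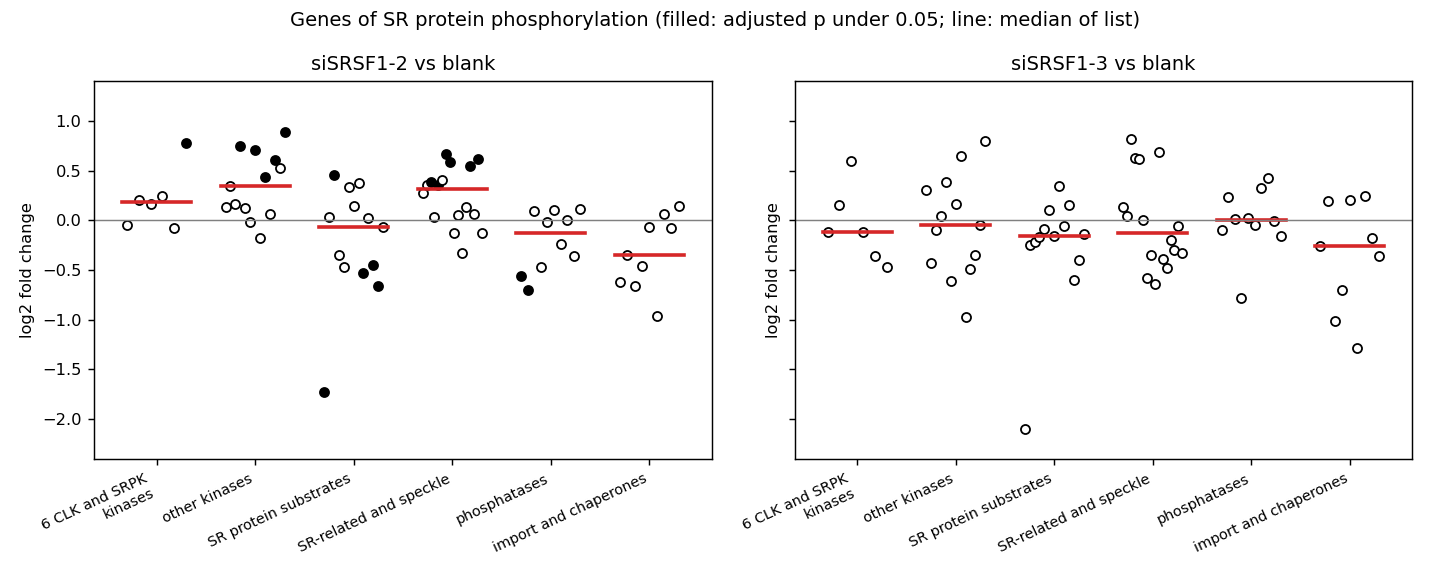
Log2 difference from blank cells of each tested gene of the 6 lists, with siSRSF1-2 (left) and siSRSF1-3 (right); the line is the median of the list, and filled points have an adjusted p under 0.05. The filled points are on the left only, where 26.8% of all genes were called, against 1.28% on the right. They are 6 of 16 SR-related genes and 5 of 13 other kinases, all higher, and 1 of the 6 kinases, also higher. Among 13 SR protein substrates 1 is higher and 4 are lower, and 2 of 10 phosphatases are lower. SRSF1 is the lowest point on both sides.

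Among 11190 protein-coding genes with a mean of at least 1 FPKM, those whose log2 level was most like that of a kinase over the 12 libraries were listed by Pearson r, as a description. For SRPK2 they were transformation/transcription domain associated protein (r = 0.98, 3.37 to 18.7 FPKM), A-kinase anchoring protein 9 (r = 0.98) and NUP98, a nucleoporin (r = 0.98). For SRPK1 they included DExD/H-box helicase 58, an RNA sensor (r = 0.96, 2.34 to 8.09 FPKM), and zinc finger protein 704 (r = 0.96). For CLK3 they were zinc finger protein 226 (r = 0.99), post-GPI attachment to proteins 2 (r = 0.97) and autocrine motility factor receptor (r = 0.97). For CLK2 they were regulator of microtubule dynamics 3 (r = 0.96), NFKB inhibitor interacting Ras like 2 (r = 0.94) and glypican 6 (r = 0.92). For CLK1 they were transmembrane protein 47 (r = 0.94), PHD finger protein 21B (r = 0.93) and ubiquitin conjugating enzyme E2 E1 (r = 0.93). For CLK4 they were zinc finger protein FOG family member 2 (r = 0.93), LON peptidase N-terminal domain and ring finger 1 (r = 0.93) and ATPase copper transporting alpha (r = 0.92). Among the kinases themselves the highest r was 0.67, between CLK2 and SRPK2, followed by 0.61 between CLK1 and CLK4, and the lowest was -0.65, between CLK3 and SRPK1. The points share libraries and scaling, and near-identical replicates count as separate points.

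Reads of overlapping genes limit single values, since the use of strand in counting is not given in the sources used here. SRPK2 shares 3658 bases, 105110704 to 105114361 on chromosome 7, with lysine methyltransferase 2E (KMT2E) on the plus strand, and KMT2E moved alongside it. KMT2E was at 8.76, 6.29 and 6.36 FPKM in blank cells, 11.8, 12.2 and 13.6 with siSRSF1-2, 4.77, 4.53 and 8.83 with siSRSF1-3, and 16.3, 12.3 and 17.1 with OE-LINC01134. Whether shared reads carry part of the SRPK2 values was not tested. CLK3 shares 14857 bases with enhancer of mRNA decapping 3 (5.58 to 8.31 FPKM) on the minus strand, CLK2 shares 909 bases with HCN3, and SRPK1 shares 909 bases with LHFPL5, which was at 0.265 to 0.9997 FPKM. CLK1 and CLK4 each overlap 1 short non-coding gene. The 5 pseudogenes named after a kinase of the 6 held at most 7 reads in any library.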

How the data were processed

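RNA-seq of 12 U2OS libraries (4 groups of 3) was analysed. The authors deposited FPKM per gene and library with gene lengths and coordinates. The aligner, counter and human genome build are not given in the sources used here. The labels name mouse, but the identifiers are human Ensembl genes. FPKM times length gave whole reads for 100% of values (within 0.001 of a read), and the FPKM carry the authors' own scaling between libraries. The labels name a SMARTER kit, the supplementary methods NEBNext with poly-T selection.

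Groups and replicate numbers came from sample titles. Values of log2(FPKM + 0.1) of 17538 genes (mean FPKM of at least 0.5) were fitted with limma 3.58.1 (R 4.3.3, eBayes with trend) on the 3 + 3 libraries compared. A gene was called at a Benjamini-Hochberg adjusted p under 0.05 over all genes tested. All 81 symbols looked up matched a full name. The script was tested on simulated data. The kinases and gene lists were chosen with earlier results of these data known. From each list the text names called genes and the up to 4 with the smallest adjusted p per siRNA; DYRK3 and SON were named after their values were seen. Alternatives were other pseudocounts, filters, scalings and call rules, voom on the reads, no trend, 1 fit over all groups, a replicate block and leaving out each library in turn. Averaging near-identical libraries was chosen after seeing the data. Deviations of same-numbered libraries correlated at -0.0815 to 0.212 (2 of 18 over 0.1), and the numbers were not taken as pairs. Without differently numbered libraries beside them, these correlations cannot exclude pairing. Depth was even, and the number of libraries limits precision. 1 gene most like SRPK1 is not reported here.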

Additional observations from a re-analysis of the deposited data

How the results depend on the processing

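Of 480 values of single kinases under an alternative, 423 kept their direction and side of the threshold, 17 turned in sign, 17 newly passed and 23 no longer passed. Causes were not tested, other than that fewer libraries or lower variance estimates follow from the construction of a setting.

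With siSRSF1-2 against blank, 1 kinase passed. The count was 0 without a filter (8.55% of all genes passed), with 1 fit over all groups (3.76%) and with the replicate block (14.1%). It was 0 with a log2 minimum of 1 beside the adjusted p (4.95%) or the unadjusted p (6.49%). It was also 0 with near-identical libraries averaged, alone or with 1 fit over all groups, where 0 of 17538 genes passed and no call could be kept. It was 2 with libraries scaled to their own reads (27.3%) or to the same FPKM sum (30%). With 1 library left out it was 0 to 3 (10.4% to 52.2%). With siSRSF1-3 against blank, 0 passed, and 1 (SRPK1) did with 1 fit over all groups. With OE-LINC01134, 1 passed. There the count was 0 without a filter (0.427% of all genes), without a trend (0.644%) and with the replicate block (0.0228%). It was 0 with the log2 minimum beside the adjusted p (0.85%) and with averaged libraries in either fit (where 1 gene of 17538 passed). It was 2 with the same FPKM sum (1.61%), with voom (3.21%) and with 1 fit over all groups (6.68%). By unadjusted p and log2 minimum it was 1 (7.45%), which was SRPK2 (1.13) in place of SRPK1, whose -0.74 was short of the minimum. With 1 library left out it was 0 to 2 (0.0057% to 25.5%). Between the siRNAs, 0 passed, and 1 (SRPK2) did with 1 fit over all groups (32.3% of all genes) or by unadjusted p and log2 minimum (16.4%). With 1 library left out 0 to 4 did (0% to 61.2%). All genes called moved too, with siSRSF1-2 from 26.8% to 3.76% and with siSRSF1-3 from 1.28% to 27.8% under 1 fit over all groups. The replicate block took SRPK2 with siSRSF1-2 to an adjusted p of 0.0603 and SRPK1 with OE-LINC01134 to 0.107, and it changed no other call of the 6 kinases. With siSRSF1-2 it left 1 of the other kinases and 3 SR-related genes higher, beside 7.1% of all genes. Whether the replicate numbers pair the libraries is not given in the labels and was not settled here.

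Signs turned only in differences that had not passed with all libraries. With siSRSF1-2, CLK1 was 0.0791 and SRPK1 0.0574 at the same FPKM sum, CLK1 was 0.0423 with averaged libraries in either fit and -0.240 to 0.0480 with 1 library left out (above 0 without blank replicate 2 or 3), and CLK3 was -0.0112 to 0.257 with 1 library left out (below 0 without blank replicate 1). With siSRSF1-3, CLK2 was -0.11 with own read totals and -0.29 at the same FPKM sum. With OE-LINC01134, CLK4 was -0.0136 with averaged libraries in either fit and -0.105 to 0.156 with 1 library left out (below 0 without blank replicate 1 or 2 or OE-LINC01134 replicate 1 or 3). Between the siRNAs, CLK3 was -0.126 at the same FPKM sum and CLK2 was -0.0996 to 0.0297 with 1 library left out (above 0 without siSRSF1-3 replicate 1). At the same FPKM sum the median of all genes shifted from 0.02 to 0.15 with siSRSF1-2, about as far as CLK1 and SRPK1 there. It shifted to -0.43 with siSRSF1-3 and -0.57 between the siRNAs. The difference of the CLK share with OE-LINC01134, 0.828 points, ran from -2.09 to 3.40 with 1 library left out (below 0 without blank replicate 1 or OE-LINC01134 replicate 1 or 3). That of the SRPK2 share with siSRSF1-3, -1.30 points, ran from -5.42 to 3.61 (above 0 without siSRSF1-3 replicate 1 or blank replicate 1).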
